A study of Homo sapiens with 14 samples.

Results

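The 44 genes described here encode the machinery that licenses origins of replication and copies DNA. They were chosen by symbol, and each of the 44 symbols matched exactly 1 row among the 36601 genes of the single-cell matrices and 1 row, with the same Ensembl identifier, in the bulk RNA-seq tables. All 44 passed the filter on low counts in every test. The series followed SW620, a line from a lymph node metastasis of a colorectal cancer, during long-term culture (LTC), in which colonies grew for 15 days without passage. SW620-FLAG cells, which the sample labels call SW620, overexpressed an empty FLAG vector, and SW620-TET2CD cells overexpressed the catalytic domain of TET2, an enzyme that oxidises methylated cytosine. Single-cell RNA-seq covered both lines on days 6, 9, 12 and 15, with 1 library per line and day. Bulk RNA-seq had 1 library each of SW480 and SW620 on day 6, and, on day 15, 1 library per line from inside the colonies and 1 from outside them, which the study parted by a brief accutase digestion and a cell strainer. SW480 comes from the primary tumour of the same patient, and no source used here tells whether the bulk SW620 cells carried the vector, so they are called SW620. No label names a clone, a separate culture or a replicate, so p-values measure the spread between these libraries only.

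Of 67056 cell barcodes, 48282 passed the study's limits on genes, UMIs (unique molecular identifiers, 1 per captured RNA molecule) and mitochondrial UMIs. Their libraries held 3894 to 8154 cells and 48186195 to 74185723 UMIs, with medians of 6640 to 13479 UMIs per cell, and the bulk libraries held 16470176 to 25840563 expected counts. KRT8, KRT18, KRT19 and EPCAM, epithelial keratins and an adhesion molecule, were at 496 to 7254 CPM (UMIs of a gene per 1000000 UMIs of the kept cells of its library, not scaled by gene length) in every single-cell library, whereas KRT20, a marker of differentiated colon, stayed under 1 CPM. Other epithelial markers were lower, VIL1 at 82.9 to 123 CPM, CDH1 at 24.7 to 119 CPM and CDX2 at 8.99 to 20.4 CPM. PTPRC and CD3E of immune cells and COL1A2 and COL3A1 of fibroblasts were at 0 to 0.0591 CPM. However, LUM, also of the fibroblast list, was at 4.31 to 27.2 CPM and COL1A1 at 1.15 to 3.35 CPM. The fibroblast list summed to 16.6 to 28.7 CPM on days 6 and 9 and to 8.37 to 12.9 CPM on days 12 and 15. The immune list summed to 7.56 to 17.4 CPM on days 6 and 9 and to 23.9 to 57.7 CPM on days 12 and 15, nearly all of it LYZ and CD68. The endothelial list (PECAM1, VWF and CDH5) summed to 0.379 to 1.39 CPM on days 6 and 9 and to 0.454 to 1.23 CPM on days 12 and 15. The part of these lists in the results was not tested. TET2 itself stood at 2.11 to 3.90 CPM in the SW620-FLAG libraries and at 40.2 to 107 CPM in the SW620-TET2CD libraries, higher in every library so labelled. Between 1 and 23 barcode sequences were shared by any pair of libraries.

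Replication is prepared before it begins. In G1 the origin recognition complex, CDC6 and CDT1 load the ring-shaped MCM2-7 helicase onto DNA, a step called licensing, and geminin (GMNN) holds CDT1 back once S phase has started. The kinase CDC7 with its partner DBF4, together with MCM10, CDC45 and the GINS complex, then turns the loaded ring into a moving helicase. Behind it the polymerases, the PCNA clamp and its loaders, the nucleases and the ligase build and join the new strands. Transcription of many of these genes is known to depend on E2F factors, which bind short GC-rich stretches close to the transcription start and become active when cells commit to divide. Most of the 44 genes are little expressed in cells that have left the cycle.

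Because many such genes are known to depend on E2F factors, the promoters of the 44 were searched for letters of the E2F type. The genes were chosen as replication genes, so a high share of matches belongs to that choice and is no result of these data. RefSeq promoter windows of GRCh38.p14, from 250 bases before the start of transcription to 50 after it, were in the table used here for 38 of the genes, 51 windows in all. The letters TTTCCCGC, TTTGGCGC, TTTCGCGC or TTTGCCGC, on either strand, occurred in 43.1% of these windows and in 3.31% of all 35116 windows. They were found for 22 of the 38 genes. CCAAT, read on both strands, was in 52.9% of the members' windows and 34.6% of all, and TTTGAA or TTCGAA, the letters of the CHR element of mitotic genes, in 5.88% and 16.4%. The 180 bases before the start are shown for MCM6 and TIPIN, whose matches lie on both strands and overlap, for PCNA, which had the most UMIs, for GINS2, among those that fell most, and for CDC7, which fell least. Capitals mark the E2F-type letters.
MCM6, chr2:135876444-135876623, minus strand: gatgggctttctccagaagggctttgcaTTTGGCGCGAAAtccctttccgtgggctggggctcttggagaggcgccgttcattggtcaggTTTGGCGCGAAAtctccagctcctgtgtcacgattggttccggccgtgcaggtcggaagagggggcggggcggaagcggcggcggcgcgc
TIPIN, chr15:66356686-66356865, minus strand: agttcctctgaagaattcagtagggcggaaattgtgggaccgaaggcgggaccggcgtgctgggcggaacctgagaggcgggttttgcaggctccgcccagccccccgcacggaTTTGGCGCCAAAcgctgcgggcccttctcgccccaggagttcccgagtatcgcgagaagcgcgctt
PCNA, chr20:5126623-5126802, minus strand: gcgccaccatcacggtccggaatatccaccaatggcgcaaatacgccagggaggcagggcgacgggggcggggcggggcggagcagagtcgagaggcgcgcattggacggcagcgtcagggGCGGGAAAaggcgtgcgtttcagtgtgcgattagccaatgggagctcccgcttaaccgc
GINS2, chr16:85688955-85689134, minus strand: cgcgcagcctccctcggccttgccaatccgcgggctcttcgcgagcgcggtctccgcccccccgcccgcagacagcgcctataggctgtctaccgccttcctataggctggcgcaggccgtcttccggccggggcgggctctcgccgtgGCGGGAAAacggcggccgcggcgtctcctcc
CDC7, chr1:91500932-91501111, plus strand: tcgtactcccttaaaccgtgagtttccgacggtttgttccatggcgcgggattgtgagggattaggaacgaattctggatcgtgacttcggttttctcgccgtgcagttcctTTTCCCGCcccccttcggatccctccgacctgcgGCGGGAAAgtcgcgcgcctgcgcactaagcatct
The overlapping pair of MCM6 appeared in duplicate, starting 152 and 90 bases before the start of transcription. The median log2 fold change between late and early days was -2.36 over the 22 genes with a match and -2.22 over the 16 with a window and no match. It was -2.69 over the 6 genes without a window. CLSPN and CDC7, the ends of the range, both carried matches. A match is a string of letters, not a measured site. No window was in the table for MCM4, MCM5, POLD3, FAM111B, DSCC1 and GINS4.

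The main comparison asked how the genes changed over LTC. All 44 genes fell from days 6 and 9 to days 12 and 15 in both lines. In the kept cells of SW620-FLAG the 44 genes together made up 0.353% of UMIs on day 6 and 0.292% on day 9. They made up 0.0593% on day 12 and 0.0526% on day 15. In SW620-TET2CD the shares were 0.335%, 0.300%, 0.0993% and 0.0653%. Over every barcode the shares on days 12 and 15 were 0.104% and 0.0548% in SW620-FLAG. In SW620-TET2CD they were 0.162% and 0.0806%. Between the early and the late libraries of a line no gene overlapped, since the lowest early value exceeded the highest late value 1.85 to 12.4 times in SW620-FLAG and 1.68 to 6.93 times in SW620-TET2CD. Of the 13267 genes with a mean of at least 1 CPM over the 8 libraries, a filter that all 44 pass, 36% were likewise separate and lower late in SW620-FLAG, 32.9% in SW620-TET2CD and 29.7% in both lines. edgeR's quasi-likelihood test, with the line as a term, called all 44 lower at an adjusted p under 0.05, where 28.3% of the 16993 tested genes were called lower. With 1 library per line and day, the days of a period served as replicates in this fit. Its p-values therefore do not measure a spread between cultures. The median log2 fold change of the 44 was -2.38, or 5.19-fold lower, against 0.04 over all tested genes, and single genes ranged from -3.44 (CLSPN) to -1.19 (CDC7).

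**Figure D1:**
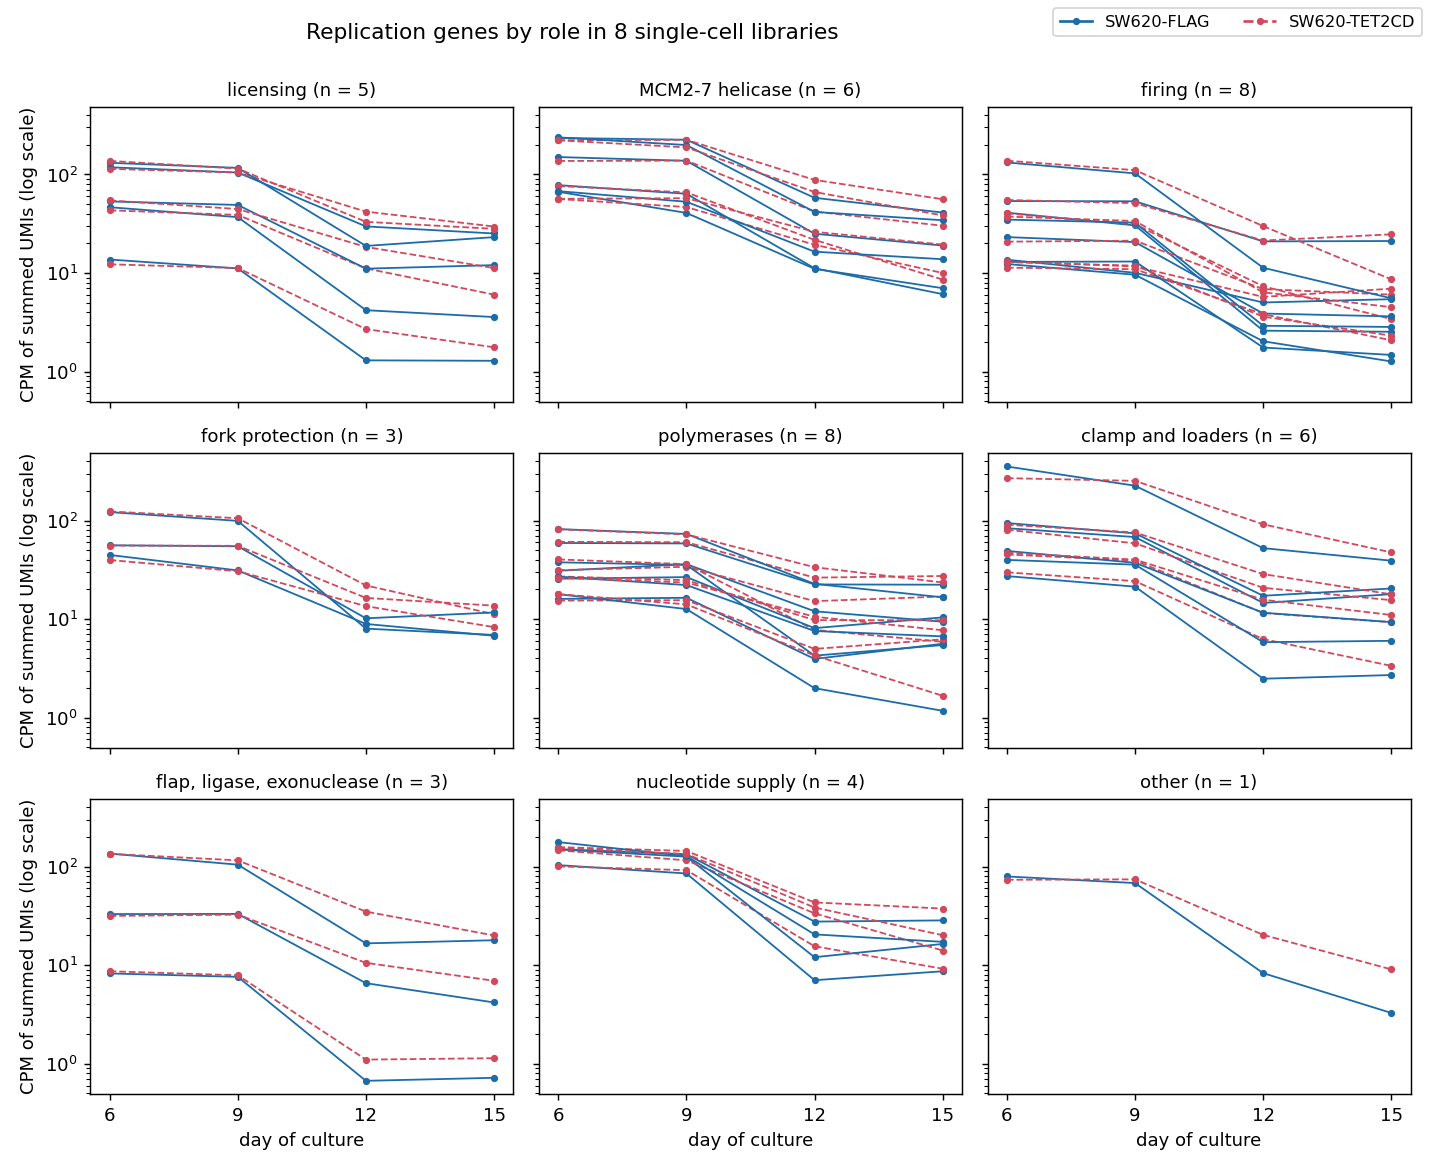
Level of each gene, by role, in the 8 single-cell libraries. The x axis is the day of culture and the y axis CPM of UMIs summed over kept cells, on a log scale, with 1 line per gene and cell line (SW620-FLAG solid, SW620-TET2CD dashed). Levels moved less from day 6 to day 9 than from day 9 to day 12, when all 44 genes dropped, and the dashed lines lie above the solid ones on day 12.

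In summed or bulk RNA, fewer cells of a kind and less RNA per cell cannot be told apart. All 20 genes of a mitotic list, such as MKI67, CCNB1 and PLK1, also fell, with a median log2 fold change of -2.50, and their part in the result was not tested. Their summed level was 2006 to 2384 CPM in the 4 early libraries and 254 to 555 CPM in the 4 late ones. Barcodes above the upper limits on genes and UMIs, left out of the sums, were 24.8% and 4.76% of barcodes on day 6 (SW620-FLAG, then SW620-TET2CD), 0.812% and 11.3% on day 9, 19.7% and 24.1% on day 12, and 1.52% and 4.73% on day 15. On the late days these RNA-rich barcodes held more of the 44 genes than kept cells did, 2.06 to 3.35 times per 2000 UMIs. With them included all 44 genes were still called lower, where 25.3% of all genes were, with a median of -1.80.

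The 5 licensing genes fell with a median log2 fold change of -2.41. ORC6, a subunit of the origin recognition complex with the most UMIs of the 5, stood on days 6, 9, 12 and 15 at 131, 117, 18.8 and 23.1 CPM in SW620-FLAG and 137, 115, 33.1 and 28.1 CPM in SW620-TET2CD. CDC6, the ATPase that helps load MCM2-7, was at 46.5, 36.9, 4.2 and 3.58 CPM in SW620-FLAG and 43.3, 38.9, 11.1 and 6.04 CPM in SW620-TET2CD on the same days. Each early value of both genes exceeded every late one, and on day 12 SW620-TET2CD was the higher line for both. GMNN, the inhibitor of CDT1, was at 118, 105, 29.7 and 25.2 CPM in SW620-FLAG and 114, 105, 42 and 29.6 CPM in SW620-TET2CD. The log2 fold change was -2.41 (SE 0.16, adjusted p = 7.5e-06) for ORC6, -2.94 (SE 0.27, adjusted p = 2.1e-05) for CDC6, which fell most, and -1.93 (SE 0.15, adjusted p = 1.2e-05) for GMNN, which fell least (edgeR). ORC1 fell like CDC6 (-2.93), and CDT1 nearer to its inhibitor (-2.05).

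The 6 subunits of the MCM2-7 ring, which assemble one to one, fell with a median of -2.33. MCM3 was at 235, 225, 58 and 41.1 CPM in SW620-FLAG and 223, 225, 88.1 and 56.1 CPM in SW620-TET2CD on days 6, 9, 12 and 15. MCM5 was at 78, 63.7, 11.2 and 6.11 CPM in SW620-FLAG and 76.3, 65.8, 21.7 and 8.59 CPM in SW620-TET2CD. MCM6 was at 67.8, 52.9, 16.5 and 13.8 CPM in SW620-FLAG and 56.7, 57.5, 26.2 and 19.4 CPM in SW620-TET2CD. From day 12 to day 15 the values of MCM5 dropped further in both lines than those of MCM6. Log2 fold changes were -2.74 (SE 0.31, adjusted p = 6.1e-05) for MCM5, -2.04 (SE 0.18, adjusted p = 2e-05) for MCM3 and -1.77 (SE 0.17, adjusted p = 2.6e-05) for MCM6, and MCM4, MCM7 and MCM2 lay between at -2.43, -2.36 and -2.30. The difference between MCM5 and MCM6 was not tested.

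The genes of origin firing had the widest range of the role groups. GINS2, a GINS subunit, was at 132, 103, 11.3 and 5.54 CPM in SW620-FLAG and 138, 111, 30 and 8.62 CPM in SW620-TET2CD on days 6, 9, 12 and 15. CDC45, which joins MCM2-7 and GINS in the active helicase, was at 41, 30.4, 2.6 and 2.53 CPM in SW620-FLAG and 40.3, 31.2, 7.35 and 3.41 CPM in SW620-TET2CD. CDC7, the kinase, was at 13.7, 10.1, 5.02 and 5.43 CPM in SW620-FLAG and 13.1, 11.7, 5.73 and 6.94 CPM in SW620-TET2CD. In SW620-FLAG, CDC45 on day 12 was at 6.35% of its day 6 level, the lowest share of the 44 genes, whereas CDC7 on day 9 lay only 1.85 times above its highest late value. Fold changes on the log2 scale were -3.36 (SE 0.29, adjusted p = 1.7e-05) for CDC45, -3.35 (SE 0.41, adjusted p = 9.3e-05) for GINS2 and -1.19 (SE 0.14, adjusted p = 8.9e-05) for CDC7. DBF4, the activator of CDC7, was near its kinase at -1.39, the genes of this complex having the smallest falls of all 44. MCM10, a helicase activator, fell by 3.23 on the log2 scale, and the other GINS subunits moved by -2.63 (GINS4), -2.43 (GINS3) and -2.23 (GINS1).

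Among the fork protection genes CLSPN encodes claspin, which carries the checkpoint signal from stalled forks to CHK1, and TIMELESS and TIPIN form a complex that travels with the fork. CLSPN was at 122, 99.2, 8 and 6.9 CPM in SW620-FLAG and 124, 106, 21.9 and 11.2 CPM in SW620-TET2CD on days 6, 9, 12 and 15. TIPIN was at 44.8, 31.2, 8.93 and 6.77 CPM in SW620-FLAG and 39.8, 30.6, 13.5 and 8.29 CPM in SW620-TET2CD. CLSPN had the largest fall of the 44 genes, -3.44 (SE 0.28, adjusted p = 1.2e-05), with every early value at least 4.81 times its late ones in SW620-TET2CD and 12.4 times in SW620-FLAG. TIPIN fell by less, -2.09 (SE 0.21, adjusted p = 3.7e-05), close to its partner TIMELESS at -2.22.

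The 8 polymerase genes had the smallest median fall of the role groups with more than 1 gene, -1.72. PRIM1, the catalytic subunit of primase, was at 81.8, 73.1, 22.8 and 16.6 CPM in SW620-FLAG and 81.6, 72.3, 33.6 and 23.5 CPM in SW620-TET2CD on days 6, 9, 12 and 15. POLE2, an accessory subunit of polymerase epsilon, was at 17.9, 12.6, 1.99 and 1.17 CPM in SW620-FLAG and 17.9, 14.1, 4.28 and 1.67 CPM in SW620-TET2CD. POLD3, an accessory subunit of polymerase delta, was at 59.2, 58.6, 22.5 and 22.3 CPM in SW620-FLAG and 60.8, 60.3, 26.4 and 27.4 CPM in SW620-TET2CD. The values of POLD3 were close on days 6 and 9 and again on days 12 and 15, with the drop between. The log2 fold changes were -2.95 (SE 0.32, adjusted p = 4.7e-05) for POLE2, -1.82 (SE 0.17, adjusted p = 2.2e-05) for PRIM1 and -1.40 (SE 0.10, adjusted p = 8.4e-06) for POLD3. Within polymerase alpha-primase the catalytic subunit POLA1 fell by 1.45 and the second subunit POLA2 by 2.80 on the log2 scale, and within polymerase epsilon the catalytic subunit POLE fell by 1.72 against 2.95 for POLE2. PRIM2 (-1.73) lay near the median of the group, and POLD1 (-1.56) was on the side of the smaller falls.

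The clamp and its loaders had a median log2 fold change of -2.29. PCNA, the sliding clamp, was at 354, 226, 52.5 and 39.2 CPM in SW620-FLAG and 269, 253, 91.6 and 47.5 CPM in SW620-TET2CD on days 6, 9, 12 and 15. DSCC1, part of the loader that acts in sister chromatid cohesion, was at 27.3, 21.3, 2.48 and 2.71 CPM in SW620-FLAG and 29.8, 24.3, 6.27 and 3.35 CPM in SW620-TET2CD. RFC5, a small subunit shared by the clamp loaders, was at 49.2, 37.3, 11.6 and 9.33 CPM in SW620-FLAG and 47.1, 40.1, 15.7 and 11 CPM in SW620-TET2CD. In SW620-FLAG the day 9 value of each lay below that of day 6, a step in which none of the 44 genes passed the test (0.349% of all genes were called lower). DSCC1 had the largest change of the group, -2.96 (SE 0.24, adjusted p = 1.2e-05), and RFC5 the smallest, -1.99 (SE 0.17, adjusted p = 1.5e-05), with PCNA between them at -2.39 (SE 0.25, adjusted p = 4.5e-05). RFC2, RFC3 and RFC4, also shared small subunits, stood at -2.19, -2.45 and -2.10.

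Of the genes that finish the strands, FEN1 encodes the nuclease that trims flaps between Okazaki fragments, LIG1 the ligase that seals them, and EXO1 an exonuclease of mismatch repair and end resection. FEN1 was at 135, 105, 16.6 and 17.9 CPM in SW620-FLAG and 135, 116, 34.9 and 20 CPM in SW620-TET2CD on days 6, 9, 12 and 15. EXO1 was at 8.24, 7.61, 0.67 and 0.719 CPM in SW620-FLAG and 8.67, 7.88, 1.1 and 1.14 CPM in SW620-TET2CD. LIG1 was at 33, 33.1, 6.56 and 4.18 CPM in SW620-FLAG and 31.6, 32.6, 10.5 and 6.94 CPM in SW620-TET2CD. EXO1 had the fewest UMIs of the 44 genes and rested on 34 UMIs in SW620-FLAG on day 12, 0.67 CPM with an exact Poisson 95% interval of 0.464 to 0.936 CPM that covers counting error only. Even so its 4 late values lay under its 4 early ones. The log2 fold changes were -3.30 (SE 0.17, adjusted p = 6.9e-06) for EXO1, -2.60 (SE 0.22, adjusted p = 1.4e-05) for FEN1 and -2.36 (SE 0.20, adjusted p = 1.6e-05) for LIG1.

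The genes of nucleotide supply had the largest median fall of the groups with more than 1 gene, -2.86. RRM1 and RRM2 encode the large and the small subunit of ribonucleotide reductase, which makes deoxyribonucleotides. RRM1 was at 150.4, 134, 27.7 and 28.5 CPM in SW620-FLAG and 158, 144, 43.3 and 37.5 CPM in SW620-TET2CD on days 6, 9, 12 and 15. RRM2 was at 104, 85.1, 7.03 and 8.66 CPM in SW620-FLAG and 100.5, 92, 15.5 and 9.19 CPM in SW620-TET2CD. The subunits of this enzyme fell by unlike amounts, with RRM2 at -3.37 (SE 0.22, adjusted p = 7.5e-06) and RRM1 at -2.23 (SE 0.13, adjusted p = 6.9e-06). TK1, the S-phase thymidine kinase, and TYMS, thymidylate synthase, moved by -2.96 and -2.76. FAM111B, which encodes a protease, was at 79.4, 68.1, 8.29 and 3.27 CPM in SW620-FLAG and 73.5, 74.3, 20.3 and 9.06 CPM in SW620-TET2CD, a fold change of -3.11 (SE 0.37, adjusted p = 8.2e-05). In both lines it stood lower on day 15 than on day 12.

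**Figure D2:**
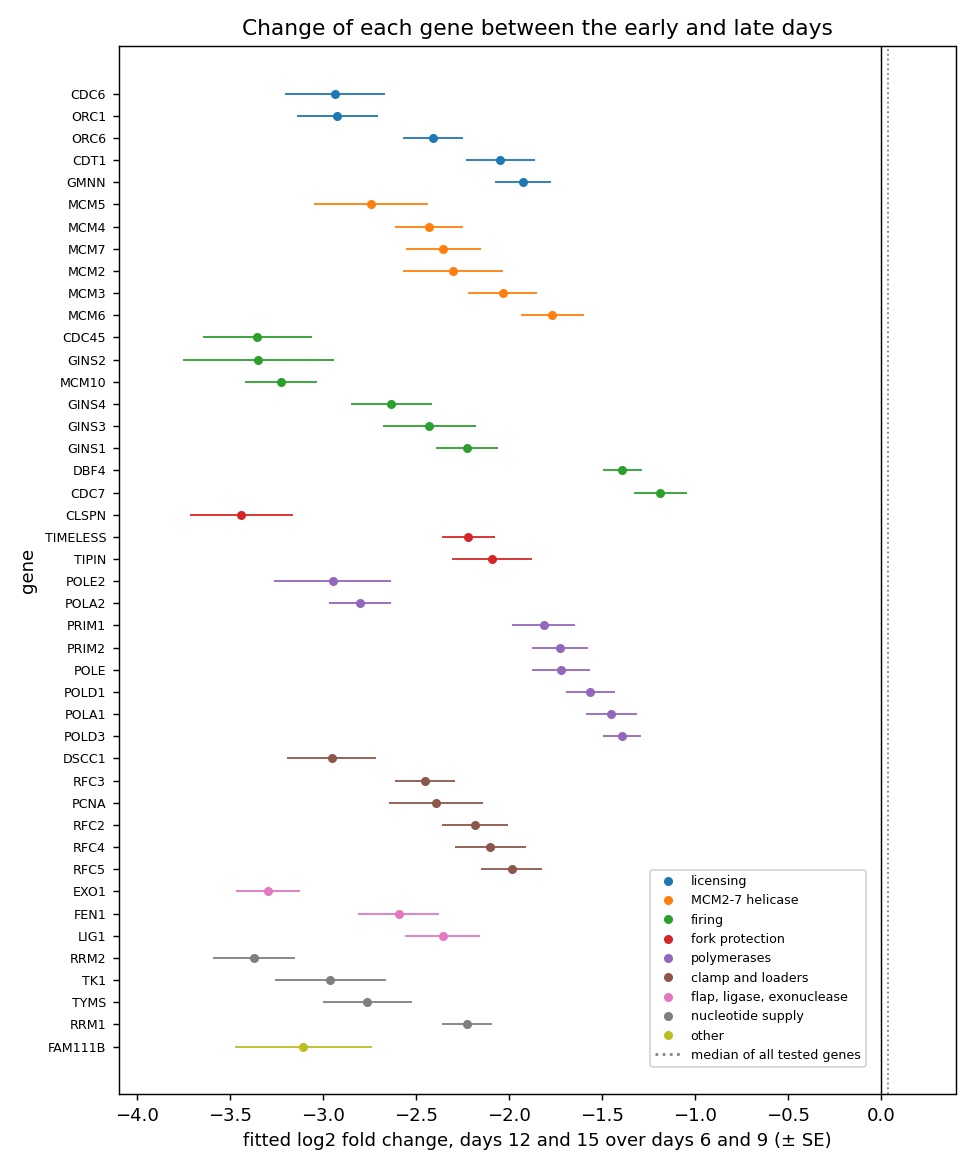
Fitted log2 fold change of each of the 44 genes between the late (days 12 and 15) and early (days 6 and 9) libraries, with bars for the standard error, grouped by role. The y axis lists the genes. All points lie left of 0, from -3.44 for CLSPN to -1.19 for CDC7, while the dotted line, the median of all tested genes, is at 0.04.

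Other genes of the pathway did not all fall. Of 53 further replication genes, all tested, 46 fell, 3 rose and 4 were not called, with a median log2 fold change of -1.38. Of all tested genes 28.3% fell and 29.4% rose. The 5 largest falls were those of the histone chaperone gene ASF1B (-3.17), the helicase RECQL4 (-2.92), the firing factor TICRR (-2.85), UHRF1 (-2.78), which brings DNA methyltransferase to new strands, and CHAF1A (-2.74), which deposits histones behind the fork. The 3 that rose were POLD4 at 0.97 (SE 0.15, adjusted p = 0.0004), the small subunit of polymerase delta, TK2 at 0.61 (SE 0.14, adjusted p = 0.004), the mitochondrial thymidine kinase, and RRM2B at 0.55 (SE 0.16, adjusted p = 0.012), the ribonucleotide reductase subunit induced by p53. After these, ORC2 (0.03) and CHTF8 (-0.15) had the highest values, with neither past the threshold.

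Subunits of one complex had unlike fold changes, which were not tested between genes. In the origin recognition complex ORC1 and ORC6 fell by 2.93 and 2.41 on the log2 scale, ORC3 fell by 0.96 and ORC5 by 0.85, and ORC2 and ORC4, at 0.03 and -0.20, were not called. In polymerase delta POLD1, POLD2 and POLD3 fell by 1.56, 1.55 and 1.40 while POLD4 rose by 0.97. In polymerase epsilon POLE3 and POLE4 fell by 1.37 and 1.32, less than POLE. In replication factor C the large subunit RFC1 moved by -0.30 (adjusted p = 0.027, edgeR), against -2.45 to -1.99 for RFC2 to RFC5, and CHTF18, the large subunit of the loader that holds DSCC1, fell by 2.25. Likewise RRM2B rose while RRM2 fell, and TK2 rose while TK1 fell.

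Step by step, the change in the sums of kept cells was concentrated between days 9 and 12. From day 6 to day 9 no gene was called (edgeR), where 0.349% of all 17478 genes were called lower, although 43 of the 44 had negative log2 fold changes with a median of -0.24, where 51.6% of all genes had positive ones. Leaving out a library moved this median to -0.07 (SW620-FLAG on day 6), -0.08 (SW620-TET2CD on day 9) and -0.39 (SW620-TET2CD on day 6, or SW620-FLAG on day 9). At an unadjusted p under 0.05, 5 were lower, where 7.63% of all genes were. DESeq2 called none of the 44 either. From day 9 to day 12 all 44 fell, against 21.9% of genes called lower, with a median of -2.11. In each line all 44 were at least 2-fold lower on day 12 than on day 9, where 7.45% of the 13267 genes in SW620-FLAG and 4.2% in SW620-TET2CD were, and from day 6 to day 9 none was (0.724% and 0.294%). With the RNA-rich barcodes kept, the fall from day 9 to day 12 was smaller, with a median of -1.28. The median from day 12 to day 15 was then -0.95, so the fall was spread over both steps. On days 9, 12 and 15 the 44 genes then summed to 2923, 1043 and 553 CPM in SW620-FLAG. In SW620-TET2CD they summed to 3011, 1673 and 822 CPM. In the kept cells the 44 genes held their order of fall from line to line between days 9 and 12. The Spearman coefficient was 0.946 over the genes, which share their libraries and are not independent.

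From day 12 to day 15 the genes GINS2 at -1.47 (SE 0.28, adjusted p = 0.0088), FAM111B at -1.23 (SE 0.30, adjusted p = 0.025), MCM5 at -1.12 (SE 0.22, adjusted p = 0.0094), POLE2 at -1.10 (SE 0.26, adjusted p = 0.02) and MCM2 at -0.81 (SE 0.21, adjusted p = 0.028) were called lower (edgeR), 5 of 44 where 6.4% of all genes were. This step rested on the SW620-TET2CD library of day 12. Without it no gene of the 44 was called, where 0.612% of all genes were called lower, and the median turned from -0.37 to 0.15. Without the SW620-FLAG library of day 12 the number called rose to 27 (5.39% of all genes), with a median of -0.75. With the RNA-rich barcodes kept 37 were called (8.82%), the median being -0.95, and without the line as a term none (1.42%). At least 2-fold lower on day 15 than on day 12 were 2 of the 44 in SW620-FLAG, where 3.93% of the 13267 genes were, and 6 in SW620-TET2CD, where 2.21% were. In SW620-FLAG 17 of the 44 were higher on day 15 than on day 12, among them POLE at 3.94 and 5.62 CPM, where 37.7% of the 13267 genes were higher, and the mitotic list summed to 254 CPM on day 12 and 461 CPM on day 15. In SW620-TET2CD 38 were lower on day 15, where 57.1% of the 13267 genes were higher, and the mitotic list went from 555 to 449 CPM.

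By day 15 the 44 genes were left with a median of 14.4% of their day 6 level in SW620-FLAG, from 4.12% (FAM111B) to 40.5% (POLD1), and 19.5% in SW620-TET2CD, from 6.25% (GINS2) to 53.9% (POLA1). All 44 were at least 2-fold lower on day 15 than on day 6 in SW620-FLAG and 42 in SW620-TET2CD, each a comparison of single libraries with no replicate check. Of the 13267 genes 16.4% and 12.7% were lower by that much.

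In single cells the UMIs of these genes lay nearer 0 on the late days. To compare cells of unequal depth each was thinned at random to 2000 UMIs, and 18 to 89 shallower cells per library were left out. On day 6 the cells of SW620-FLAG held a mean of 6.88 UMIs of the 44 genes and those of SW620-TET2CD 6.53, followed by 5.63 and 5.72 on day 9, 1.11 and 1.73 on day 12, and 0.911 and 1.09 on day 15. Cells without a single UMI of the 44 genes made up 3.71% to 8.11% of kept cells in the early libraries and 42.5% to 50.8% in the late ones. At 4000 UMIs per cell these shares were 1.46% to 3.19% and 23.95% to 28.0%, so part of them is set by depth. Kept cells with 10 UMIs or more were 15.1% to 24.7% early and 0.689% to 2.35% late, with the highest late share in SW620-TET2CD on day 12. Barcodes above the upper limits are not in these shares. Of them, 9.28% on day 12 and 0% on day 15 held 10 or more per 2000 UMIs in SW620-FLAG. In SW620-TET2CD 11.8% and 8.29% did. Without any UMI of the 44 were 21.5% and 28.7% of them in SW620-FLAG, and 9.63% and 18.5% in SW620-TET2CD.

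**Figure D3:**
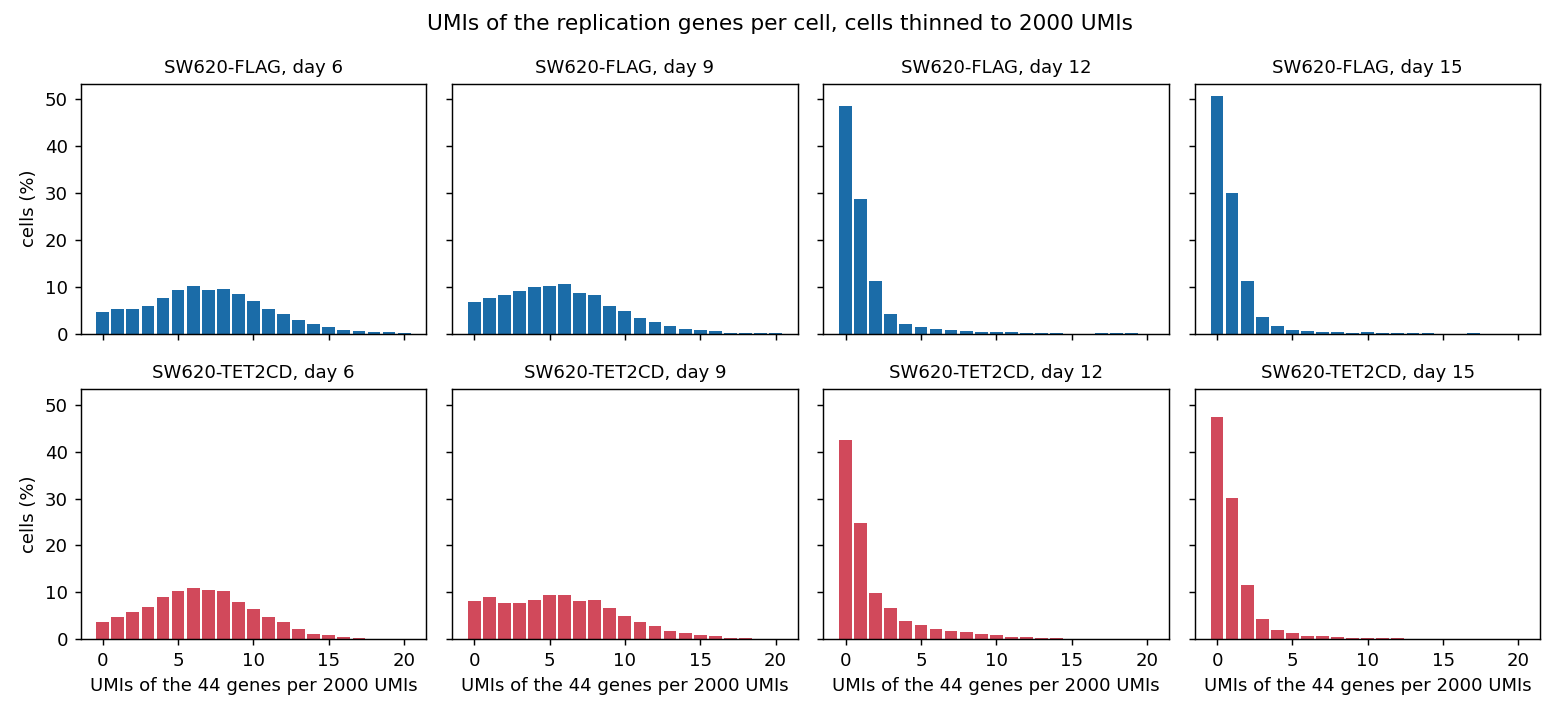
Distribution over kept cells of the number of UMIs from the 44 genes after thinning each cell to 2000 UMIs. Each panel is 1 library, the x axis the UMIs of the 44 genes in a cell (up to 20) and the y axis the percentage of cells. Early libraries peak at 5 or 6 UMIs, and late libraries peak at 0, where 42.5% to 50.8% of cells lie, with a thin tail to the right.

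For each of the 44 genes the share of cells with a UMI did not overlap between early and late libraries and was lower late, as it was for 24.8% of the 13267 genes (26.1% at 4000 UMIs per cell). PCNA was found in 32.9% to 46.8% of cells in the 4 early libraries and 6.01% to 12.2% in the 4 late ones, and without thinning in 66.9% to 88.6% early and 19.4% to 40.1% late. CLSPN was found in 16.4% to 20.6% of cells in the 4 early libraries and 1.1% to 3.72% in the 4 late ones, and CDC7 in 1.89% to 2.57% of cells in the 4 early libraries and 0.877% to 1.2% in the 4 late ones. All cells were SW620 derivatives, and no cell type that should lack the genes was at hand to measure the level that free RNA gives.

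Cells were also split by the mitotic list, at 2 or more of its UMIs per 2000, a range of a score and not a cell type, chosen after the data had been seen. Marked cells were 58.4% to 70.8% of kept cells in the early libraries. In the late ones they were 5.68% (SW620-FLAG) and 14.7% (SW620-TET2CD) on day 12, and 7.58% and 7.83% on day 15. Marked cells held a mean of 6.41 to 7.61 UMIs of the 44 genes early and 3.33 to 4.40 late, and unmarked cells 4.34 to 5.48 early and 0.712 to 1.30 late. The list that makes the split fell between the periods itself, so each range may hold unlike cells early and late, and the values describe the ranges and do not test the genes apart from it. Lower on the late days were 43 of 44 genes in marked cells, with a median log2 ratio of -0.72, and 44 of 44 in unmarked cells, with a median of -2.50, where 44.7% and 46.8% of the 13267 genes were lower. DBF4 was the exception among marked cells, at 0.122 UMIs per cell early and 0.13 late. GINS2 had the lowest ratio there, 0.255 and 0.0816. The few marked cells of the late days held 22.5% to 36.0% of the UMIs of the 44 genes in kept cells thinned to 2000 UMIs. Barcodes above the upper limits were outside these shares.

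Cells were split likewise by histone genes, whose products are made mainly in S phase. The split is again a range of a score and not a measure of cells in S phase. Cells with 2 or more UMIs of 34 replication-dependent histone genes were 51.9% to 58.6% of kept cells early and 33.8% to 43.2% late. They held a mean of 6.42 to 7.93 UMIs of the 44 genes early and 1.15 to 2.13 late, and the other cells 4.43 to 5.73 and 0.787 to 1.46. All 44 genes were lower late in both ranges, where 45.7% and 47.4% of the 13267 genes were. The histone list moved with day too, so that the same limit holds, since 28 of its 31 tested genes fell from early to late, while HIST1H2AC rose by 1.33 on the log2 scale. From day 6 to day 9 the list and the 44 genes went apart. Of the 31 histone genes 29 had positive log2 fold changes, with a median of 0.52, though only 1 was called higher (edgeR). Of the 44 genes 43 had negative ones, where 51.6% of all genes had positive ones. The rise of the histone list was mostly in SW620-FLAG, where it summed to 1518 CPM on day 6 and 2187 CPM on day 9. In SW620-TET2CD it summed to 1812 and 1876 CPM.

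The next question was whether TET2CD changed these genes. On days 6 and 9 the lines were close. The ratio of SW620-TET2CD to SW620-FLAG over the 44 genes ranged from 0.761 (PCNA) to 1.13 (RFC3) on day 6 and from 0.863 (RFC2) to 1.16 (CDC7) on day 9. None of the 44 differed by 1.5-fold on those days, where 2.71% of the 13267 genes were that much higher and 1.7% lower on day 6, and 3.38% and 1.76% on day 9. On day 12 all 44 genes were higher in SW620-TET2CD, by a median of 1.71 times and from 1.02 (DBF4) to 2.82 times (CDC45). Of the 44, 33 were higher by 1.5-fold or more, against 5.57% of the 13267 genes. On day 15, 39 of the 44 were higher, by a median of 1.30 times, and FAM111B stood apart at 2.77 times, while 71.3% of the 13267 genes were higher too. The median log2 ratio was 0.38 over the 44 and 0.23 over the 13267 genes on day 15, and 0.78 and 0.02 on day 12, when 54.1% of the 13267 were higher. On day 15, 13 were higher by 1.5-fold or more, where 18.9% of the 13267 genes were. These are ratios of 1 library to 1 library, with no replicate check.

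**Figure D4:**
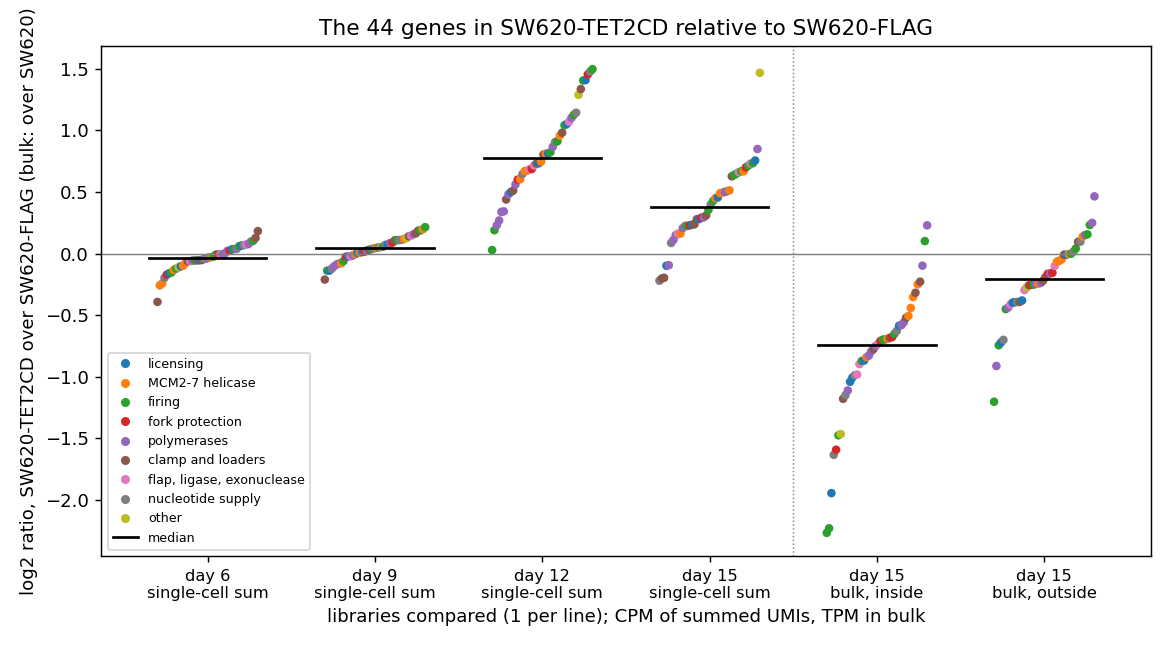
Log2 ratio of SW620-TET2CD to SW620-FLAG (to SW620 in bulk) for each of the 44 genes (points, coloured by role and sorted within each column) with the median as a black bar. The y axis is the log2 ratio, of CPM in the 4 single-cell columns and of TPM in the bulk columns, and each column compares 1 library per line. Points lie near 0 on days 6 and 9, all above 0 on day 12 and mostly above on day 15, whereas 42 of 44 lie below 0 in bulk cells from inside the colonies.

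Tested over all days, none of the 44 genes passed between the lines. edgeR, with day as a term, called none (4.32% of all genes were called), with a smallest adjusted p of 0.22 among the 44, and DESeq2 called none. With 1 library per line and day, a difference between the lines that varies by day counts as spread here. These tests therefore cannot decide on a difference limited to day 12. At an unadjusted p under 0.05, 4 were higher, where 7.21% of all genes were. The median log2 fold change was 0.16 and 40 of 44 were above 0, as were 48.8% of all genes, the highest being FAM111B at 0.53 (SE 0.21, adjusted p = 0.24). The median was near 0 (-0.02 and -0.01) without either day 12 library, 0.25 to 0.26 without any 1 library of day 6 or day 9, and 0.02 without day as a term. The test of the difference of the late-against-early change between the lines called none of the 44 and none of all genes (0%), in edgeR and in DESeq2, with 6 of the 44 higher (0.515% of all genes) and 141 of all genes either way at an unadjusted p under 0.05. Its median was 0.52, a smaller fall in SW620-TET2CD in 43 of 44 genes (50.1% of all genes were above 0), and 0.06 without the SW620-TET2CD library of day 12 and 0.84 without that of day 15. The SW620-TET2CD library of day 12 also had the largest share of mitotic-marked cells among kept cells of the late libraries (14.7%). Its share of barcodes above the upper limits (24.1%) was the largest of any late day. The part of both in the result was not tested.

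The bulk libraries, whose TPM values are scaled by gene length, allow levels to be compared between genes. On day 6 in SW620, PCNA led at 373 TPM, followed by MCM4 and MCM7 at 206 TPM each, MCM3 at 182 TPM, RRM2 at 138 TPM and TK1 at 135 TPM. The median was 39.9 TPM, and EXO1 at 13.4 TPM and POLE2 at 12.7 TPM came last. With 1 library no spread is known, so neighbours such as MCM4 and MCM7 have no tested order. The MCM2-7 subunits ran from 45.5 TPM for MCM6 to 206 TPM for MCM4, though they join one to one in the ring. On day 15 the 44 genes of SW620 summed to 1073 TPM within colonies and 1243 TPM beyond them, against 2826 TPM on day 6. All 44 were below the day 6 level at both locations, by medians of -1.49 and -1.21 on the log2 scale, where 46.3% and 43.6% of the 15964 genes with a mean of at least 1 TPM over the 6 libraries were above it. RRM2 was farthest below, at 20.8 TPM inside and 23.9 TPM outside.

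By the 2-fold mark 35 of the 44 were lower inside and 29 outside, where 8% and 7.67% of the 15964 genes were. The bulk fall was smaller than that in the sums of kept cells, and the sizes were not tested against each other. On day 6 most of the genes differed by under 2-fold between SW480 and SW620. The ratio of SW480 to SW620 had a median of 1.03 and lay between 0.563 (ORC6) and 3.30 (RRM2). Only RRM2 (456 and 138 TPM), DBF4 (71.0 and 27.2 TPM), MCM7 (460.3 and 206 TPM) and TYMS (199 and 89.5 TPM) were 2-fold or more higher in SW480, 4 of 44 where 15.9% of the 15964 genes were, and none was 2-fold lower where 15.3% were. These are single libraries without a test.

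Inside and outside the colonies were compared on day 15, the question being whether cells at the edge of or beyond a colony differed from those within. Every one of the 44 genes had a positive fitted fold change, higher outside, but none passed the test over all genes. edgeR's quasi-likelihood test, with the line as a term, called none of the 44 at an adjusted p under 0.05, and none of all 17722 genes (0%), with a smallest adjusted p of 0.28 over all genes. DESeq2 called none of the 44, and over all genes 13 higher and 10 lower. At an unadjusted p under 0.05, 25 of the 44 were higher, where 3.46% of all genes were. The median log2 fold change was 0.43, and the highest was MCM10 at 1.11 (SE 0.35, adjusted p = 0.77). Without the line term the median was 0.41. With 3 libraries that term leaves no residual degree of freedom, so leaving out a library also dropped it, and the median then ranged from 0.08 (without the SW620-TET2CD library from inside) to 0.84 (without the SW620 library from inside), values that hold the difference between the lines as well. Of all genes 51.1% had positive fold changes. The fit has 1 residual degree of freedom.

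The ratio was larger in SW620-TET2CD for all but POLD3. In SW620-TET2CD all 44 genes were higher outside in TPM, with a median log2 ratio of 0.80, and in SW620 39 were, with a median of 0.22, where 58.6% and 45.6% of the 15964 genes were higher. MCM10 was at 5.31 TPM within SW620 colonies against 5.85 TPM beyond them, and 1.13 TPM within SW620-TET2CD colonies against 4.91 TPM beyond them. CDC45 was at 14.6 TPM within SW620 colonies against 18.8 TPM beyond them, and 3.03 TPM within SW620-TET2CD colonies against 11.2 TPM beyond them. GINS4 was at 4.37 TPM within SW620 colonies against 8.71 TPM beyond them, and 1.57 TPM within SW620-TET2CD colonies against 3.78 TPM beyond them. The low values are those inside the SW620-TET2CD colonies, and GINS4 alone was over 1.5-fold higher outside in SW620. In SW620-TET2CD 33 of the 44 were 1.5-fold or more higher outside, against 14.7% of the 15964 genes, and in SW620 1 was, against 5.36%. PCNA was at 136 TPM within SW620 colonies against 159 TPM beyond them, and 84.5 TPM within SW620-TET2CD colonies against 121 TPM beyond them. The difference between the lines rests on 1 library per line and location and was not tested.

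**Figure D5:**
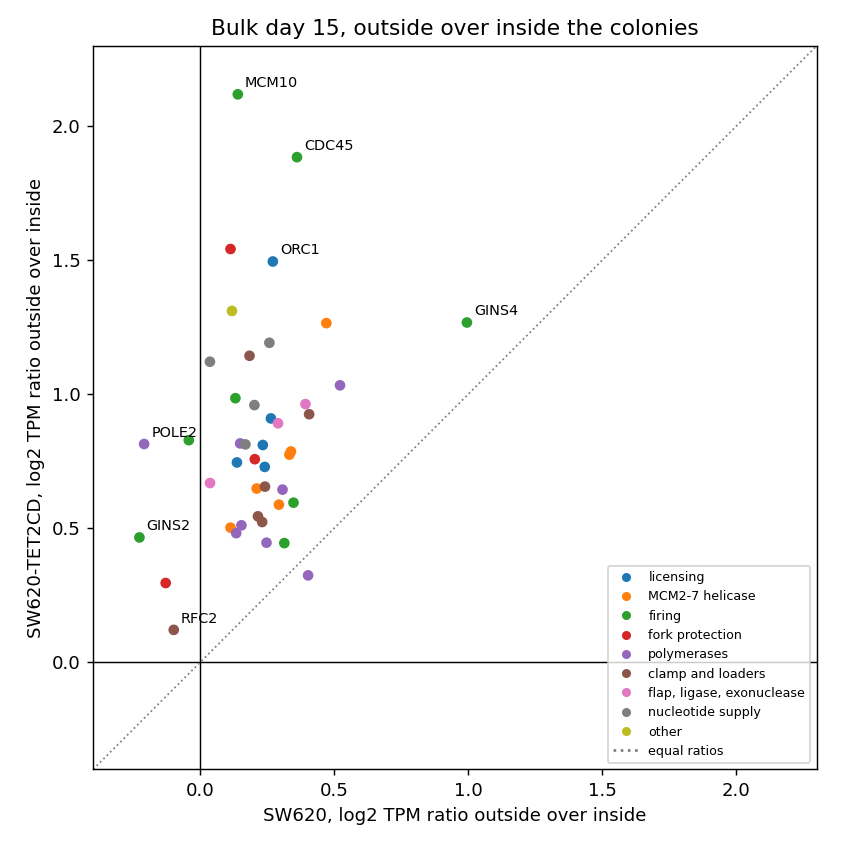
Log2 ratio of TPM in cells outside to that inside colonies (day 15) for the 44 genes, in SW620 (x axis) and SW620-TET2CD (y axis), coloured by role. The dotted line marks equal ratios. All 44 genes lie above 0 on the y axis, 39 lie right of 0 on the x axis, and all but POLD3 lie above the dotted line, MCM10 and CDC45 farthest.

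The lines were compared in the same 4 libraries. Inside the colonies 42 of the 44 genes were lower in SW620-TET2CD than in SW620, with a median log2 ratio of -0.74, and outside 34 were, with a median of -0.21. Of the 15964 genes 48.6% were higher in SW620-TET2CD inside and 59.2% outside. Inside, 32 were lower by 1.5-fold or more, against 13.5% of the 15964 genes, and outside 5 were, against 11%. ORC1 was at 3.2 TPM within SW620 colonies against 3.86 TPM beyond them, and 0.83 TPM within SW620-TET2CD colonies against 2.34 TPM beyond them. TK1 was at 24.2 TPM within SW620 colonies against 29 TPM beyond them, and 7.8 TPM within SW620-TET2CD colonies against 17.8 TPM beyond them. DBF4, the activator of CDC7, was at 8.82 TPM within SW620 colonies against 11 TPM beyond them, and 9.46 TPM within SW620-TET2CD colonies against 12.9 TPM beyond them. Thus ORC1 and TK1 were lowest inside SW620-TET2CD colonies while DBF4 was slightly higher in SW620-TET2CD at both locations.

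edgeR, with location as a term, called none of the 44 (0.124% of all genes were called lower), the smallest adjusted p among them being 0.086, and 27 were lower at an unadjusted p under 0.05 where 10% of all genes were. CDC45 had the largest change, -1.43 (SE 0.32, adjusted p = 0.12). DESeq2 called 3 lower (2.27% of all genes). Without the location term none was called (0.0282% of all genes). With 3 libraries the location term leaves no residual degree of freedom, so leaving out a library also dropped that term, and the location left unmatched is part of these counts. They were 38 without the SW620-TET2CD library from outside, 6 without that from inside, and 0 without either SW620 library, where 8.54%, 11%, 0% and 0% of all genes were called lower. The mitotic list moved the same way and further, with 20 of 20 genes lower in SW620-TET2CD and a median of -1.18, and 20 of 20 higher outside with a median of 1.08. In SW620 it summed to 326 TPM within colonies and 445 TPM beyond them, and in SW620-TET2CD to 103 TPM and 326 TPM. Its part in these results was not tested. The direction in bulk, lower in SW620-TET2CD, was opposite to that of the single-cell libraries of day 15, where 39 of the 44 genes and 71.3% of the 13267 genes were higher. The labels split the single-cell libraries by no location, and its part in the result was not tested.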

How the data were processed

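Cells were profiled with the 10x Genomics 3′ v3.1 kit. Per the labels and the study's methods, the authors used Cell Ranger 4.0 with GRCh38 and deposited raw UMI counts per gene and barcode. For bulk RNA-seq the authors deposited RSEM expected counts and TPM (TruSeq libraries). The processing notes name Bowtie and mm10, but the gene identifiers are human, so the build of these tables is uncertain. After the study's limits, kept cells had between 200 and 4500 detected genes, between 1000 and 20000 UMIs, and no more than 10% of UMIs from mitochondrial genes. These limits left more cells than the study used, so the cell set differs, and a further filter of the study may be missing here. The study's methods also describe bringing the runs to equal sequencing depth before these limits. Here the limits were put on the deposited raw counts. Doublets were not called. Counts were summed per library, expected counts were rounded, and edgeR 4.0.16 in R 4.3.3 was run (filterByExpr, TMM, quasi-likelihood test, two-sided, Benjamini-Hochberg over all tested genes, threshold 0.05), with DESeq2 1.42.0 as an alternative. Scripts were tested on simulated data. SE is the absolute log2 fold change divided by the square root of F. CPM is not scaled by gene length. Libraries were thinned with 1 random seed (33). Python 3.11.15 was used for sums and figures.

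The members, the gene lists and the tests were chosen with earlier results of these data known. Values by library are given for the member of each role with the highest mean CPM and those with the largest and smallest change between late and early days. Alternatives were DESeq2, upper-quartile factors, no filter, every barcode, no upper limits, 20% mitochondrial UMIs, dropping the top 8% of cells by UMIs, no block and each library left out. The mitotic split, the barcodes above the limits and the filter on a mean of 1 CPM or 1 TPM for ratios of single libraries were added after seeing the data. A floor of 3 UMIs is 0.0404 to 0.0623 CPM by library, for counting error only.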

Additional observations from a re-analysis of the deposited data

Results flagged for a closer look

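In bulk cells of day 15, 5 of the 44 genes had log2 TPM ratios of outside to inside the colonies with opposite signs in the lines, lower outside in SW620 and higher outside in SW620-TET2CD. GINS2 had ratios of -0.227 for SW620 and 0.465 for SW620-TET2CD, and POLE2 ratios of -0.21 for SW620 and 0.814 for SW620-TET2CD. For TIPIN it was -0.129 for SW620 and 0.295 for SW620-TET2CD, for RFC2 -0.0994 for SW620 and 0.12 for SW620-TET2CD, and for the kinase gene CDC7 -0.0431 for SW620 and 0.828 for SW620-TET2CD. Each ratio compares 1 library with 1 library, and the difference between the lines was not tested. No group had 4 or more libraries, so none was examined for a single library far from the others.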

How the results depend on the processing

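The 44 falls between early and late days, and those from day 9 to day 12, kept their direction and stayed past the threshold under every alternative run (704 results each). The median of the first ranged from -2.61 to -1.78, and leaving out a library gave 44 calls each time, where 23.7% to 29.3% of all genes were called lower (10.5% to 26.5% from day 9 to day 12). Upper-quartile factors moved the median of all genes from 0.04 to 0.21 and the split of all calls from 5001 higher and 4807 lower to 6413 and 3708. The labels give no replicate numbers, so libraries were matched only by line, day or location. The line, day or location served as a term, and "no block" is the fit without it.

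The 5 members called lower from day 12 to day 15 became 8 with DESeq2, 12 with upper-quartile factors, 19 without the filter on low counts, 38 with every barcode, 37 without upper limits, 16 without the 8% of cells with most UMIs and 0 without the line term, and 0 to 27 when a library was left out. All-gene shares called lower were 5.89%, 8.42%, 6.69%, 9.34%, 8.82%, 6.81% and 1.42%, and 0.612% to 10.5%. From day 6 to day 9, 2 members were called lower without the filter (1.89% of all genes) and 0 when any library was left out. Between the lines in single cells 5 were called higher without the filter (2.81%), and 0 with any library left out, likewise 0 for the difference of change. In bulk, location gave 6 higher calls without the filter (0.903%) and 0 with any library left out, and the line gave 3 with DESeq2, 23 without the filter, and 0 to 38 with a library left out (2.27%, 3.76% and 0% to 11% of all genes called lower). ORC1 alone of the bulk genes followed here (MCM10, ORC1 and GINS4 for location) turned, to -0.0629 without the SW620-TET2CD library from inside and the line term, and its highest value with a library left out was 1.88. In bulk each library was left out together with the line or location term, since 3 libraries leave no residual degree of freedom with it. The SW620 pair alone had a log2 TPM ratio of 0.27 for ORC1, still positive. Other causes were not tested. Cells thinned to 4000 UMIs, and histone cuts of 1 or 3 UMIs, left the counts of 44 as they were, and mitotic cuts of 1 and 3 gave 44 and 40 genes lower in marked cells. With 1 library per condition, and 1 residual degree of freedom in bulk, the absence of a call does not show that genes did not change.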
